A study of Mus musculus with 188 samples.

Results

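Organotypic brain slice cultures (BSCs) exposed for 48 h to hemoglobin bound to haptoglobin (HbHp, 400 μM) were compared with slices given haptoglobin alone (Hp, 400 μM) for the same time. The question is how slices given the complex differ from slices given haptoglobin alone. Members were the libraries of the second culture round whose title, treatment label and library name agreed, which left 5 HbHp and 6 Hp libraries of the 188 in the series. The slices came from wild-type C57BL/6J mice of both sexes, 6 to 8 weeks old, whose brains were perfused with saline, cut coronally, cultured on membrane inserts and treated on day 7. The dose of 400 μM is the one in the titles, treatment labels and library names, which mark other HbHp libraries of the round as 200 μM. The general treatment protocol names 200 μM only, and the dose of the labels was used here. Both groups were thus wild type and received haptoglobin. Adult slice cultures are known to lose microglia with time in culture, and blood does not flow through them. The labels did not say whether the libraries came from separate mice, so p-values measure the spread between these libraries.

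Haptoglobin is the plasma protein that captures hemoglobin released from ruptured red blood cells, and CD163 on macrophages takes up the complex. According to the study, its hemoglobin and haptoglobin were human, apart from isotope-labelled material. The study describes mouse CD163 as binding the complex weakly compared with the human receptor. It regards its findings as compatible with entry that does not use CD163 in these slices. Inside the cell, heme is freed in lysosomes, moved to the cytosol by the transporter HRG1 (Slc48a1) and opened by heme oxygenase 1 (Hmox1), which releases iron that is stored in ferritin or exported by ferroportin (Slc40a1). Heme and oxidants also release the transcription factor NRF2 from KEAP1, and NRF2 with a small MAF partner then switches on genes for glutathione, thioredoxin and NADPH production.

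Each library held 22564146 to 33153875 counts with HbHp and 24974926 to 30042302 with Hp, and all 11 carried the same batch label. Library numbers ran from 52 to 62 with HbHp and from 74 to 84 with Hp, so any effect of the order of handling cannot be told apart from treatment. Markers of neurons, astrocytes, oligodendrocytes, microglia and endothelium were detected in all 11 libraries. The red blood cell transcripts Hba-a1, Hba-a2, Hbb-bs and Hbb-bt together gave 3 counts, all from Hba-a1. Levels are given in CPM, the counts of a gene scaled to a common library total. HbHp replicate 2 stood apart on the first principal component (-47.8, against -15.1 to 18.8 in the other 10 libraries), with 65.7 CPM of Acod1 and 38.9 CPM of Fpr1, against at most 0.647 and 0.701 CPM elsewhere. The choroid plexus transcript Ttr was at 0.105 CPM in HbHp replicate 2 and at 0.713 CPM in Hp replicate 2, against group medians of 217 and 375 CPM. Called values that moved by over 1.5 times without HbHp replicate 2 (Marco, Ppbp and Cyp1b1) are given with and without it. Without both libraries, 91 of the 130 named genes called in the full comparison stayed past the threshold. Those lost included Nkx3-2 (adjusted p = 0.0633), Rnf225 (adjusted p = 0.0507), Idh1 (adjusted p = 0.0651) and Psma6 (adjusted p = 0.0688), which passed in every fit that left out a single library.

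Of 15141 genes tested, HbHp raised 322 and lowered 296 relative to Hp at a Benjamini-Hochberg adjusted p under 0.05 over all of them (quasi-likelihood F test in edgeR), and 157 of the 618 changed at least 1.5-fold, 82 upward and 75 downward (1.04% of those tested). The called genes made up 4.08% of those tested, 2.13% raised and 1.95% lowered, and these shares are the background for the counts below. The median log2 fold change over all genes tested was 0.0037. The count ranged from 337 to 769 when each library was left out in turn, falling by more than 1.5 times without HbHp replicate 4 (395) or without any one Hp library (337 to 408), and 583 genes were called without HbHp replicate 2. Without both libraries low in choroid plexus transcripts, 358 were called.

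The NRF2 target list moved almost as a block. Of 32 members tested, 28 were raised and none was lowered, with a median log2 fold change of 0.63, and in 28 of the 32 every HbHp library exceeded every Hp library, against 2.85% of all genes tested, while 1.99% lay wholly below. The 4 that missed the threshold were Ftl1, the ferritin light chain (log2 fold change 0.36), Mgst1 (0.35), Gstp1 (0.17) and Ugdh (0.06). Without HbHp replicate 2, 29 members were raised and the median was 0.61. The list was drawn up with earlier results of these data known, so its direction is not independent evidence.

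The promoters of the 3 members with the smallest unadjusted p (Gclm, Srxn1 and Prdx1, whose adjusted p Txnrd1 shares) and of the member with the largest fold change (Gsta3) are shown because they hold the letters that NRF2 or its relatives are known to read. Sequences are from RefSeq (GRCm38.p6), written 5′ to 3′ on the strand of the gene, all plus, and lie wholly upstream of the annotated start. Capitals mark matches on either strand to TGACNNNGC, the core of the antioxidant response element, or to TGACTCA, the site of the AP-1 family. The Prdx1 capitals hold both motifs, which overlap there. The Gclm stretch is chr3:122245363-122245491, Prdx1 chr4:116685406-116685534, Gsta3 chr1:21240404-21240532 and Srxn1 chr2:152105362-152105521.
Gclm: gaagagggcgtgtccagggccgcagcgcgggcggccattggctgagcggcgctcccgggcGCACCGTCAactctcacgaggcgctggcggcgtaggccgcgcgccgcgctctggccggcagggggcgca
Prdx1: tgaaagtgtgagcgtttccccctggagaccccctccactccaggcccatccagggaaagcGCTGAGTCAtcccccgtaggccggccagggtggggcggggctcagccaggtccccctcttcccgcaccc
Gsta3: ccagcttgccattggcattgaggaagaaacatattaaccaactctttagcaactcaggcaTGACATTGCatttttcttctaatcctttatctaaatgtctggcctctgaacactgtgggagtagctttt
Srxn1: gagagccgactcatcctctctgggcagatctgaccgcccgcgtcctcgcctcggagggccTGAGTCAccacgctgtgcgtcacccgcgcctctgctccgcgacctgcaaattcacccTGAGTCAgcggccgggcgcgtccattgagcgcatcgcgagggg
Promoters were found in the table for 26 of the 32 NRF2 targets tested. Within 250 bases upstream of the first start listed, 7 of the 26 (26.9%) held TGACNNNGC and 5 (19.2%) held TGACTCA, against 10.1% and 4.43% of 27025 promoters in the table. Of the 22 raised NRF2 targets with a promoter, 5 (22.7%) held TGACNNNGC and 4 (18.2%) held TGACTCA. Mgst1 and Ugdh, which hold TGACNNNGC, and Gstp1, which holds TGACTCA, were among the members that missed the threshold. Among all raised genes with a promoter, 13.2% held TGACNNNGC, close to the 11.6% of lowered genes and the 11.9% of all tested genes. TGACTCA was found in 4.65% of raised, 2.68% of lowered and 3.11% of tested genes. A match is a description of these letters and not a binding site, and elements further upstream were not searched.

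Gclm (ENSMUSG00000028124), the regulatory subunit of the enzyme that limits glutathione synthesis, had the smallest p of all genes. It measured 272, 250.3, 278, 263 and 239 CPM in HbHp replicates 1 to 5. The Hp libraries ran from 106 to 119 CPM with a median of 116. The groups did not overlap, and the log2 fold change was 1.20 ± 0.05 (SE, adjusted p = 1.31e-07).

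Nqo1 (ENSMUSG00000003849), a quinone reductase and the usual reporter gene of NRF2, was found at 29.02, 33.98, 33.01, 25.2 and 25.2 CPM with HbHp. The Hp libraries ran from 7.66 to 12.3 CPM with a median of 9.84. Every HbHp library was above the highest Hp library (log2 fold change 1.59 ± 0.12, adjusted p = 2.13e-05). The 2 control libraries of the round, of which 1 carried another batch label, stood at 6.95 and 7.05 CPM when all 48 h libraries were scaled together, and HbHp at 200 μM gave 27.5 ± 6.36 CPM (SD, n = 8), at a dose that differs.

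The peroxide-repair enzymes behaved alike. Srxn1 (ENSMUSG00000032802), which reactivates oxidized peroxiredoxins, had 412, 325, 374, 341 and 334 CPM with HbHp, against 122 to 157 CPM with Hp (median 146). Prdx1 (ENSMUSG00000028691), an abundant peroxiredoxin, had 2093, 2495, 2735, 2466 and 2009 CPM with HbHp, against 862 to 1059 CPM (median 939.7). Neither gene overlapped between groups, with a log2 fold change of 1.33 ± 0.08 for Srxn1 (adjusted p = 3.85e-06) and of 1.31 ± 0.09 for Prdx1 (adjusted p = 8.25e-06). Of 15 thioredoxin and peroxiredoxin genes tested, 4 were raised and none lowered, the others being thioredoxin reductase Txnrd1 (0.71) and thioredoxin itself, Txn1 (0.42). The list median was 0.06, with 11 of 15 estimates above 0.

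Slc7a11 (ENSMUSG00000027737), the cystine importer that feeds glutathione synthesis, measured 231, 327, 205, 149 and 193 CPM with HbHp. The Hp libraries ran from 48.4 to 74.2 CPM, with a median of 64.8. HbHp replicate 2 was the highest and replicate 4 the lowest, and both lay above all Hp libraries (1.79 ± 0.17, adjusted p = 0.000138). Its membrane partner Slc3a2 rose less (0.34, adjusted p = 0.00129).

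Gsta3 (ENSMUSG00000025934), a glutathione S-transferase of the alpha class, had the largest fold change of the list at a low level. Its HbHp values were 8.13, 9.34, 10.9, 8.30 and 6.33 CPM, and its Hp values ran from 1.36 to 3.21 CPM with a median of 2.39 (1.86 ± 0.20, adjusted p = 0.000303). The transferases Gstm1 (0.77), Gsta4 (0.55) and the microsomal Mgst2 (0.99) also rose, whereas Hpgds, the hematopoietic prostaglandin D synthase of this family, fell by 0.54 (adjusted p = 0.0438). Thus 4 of 21 transferases tested were raised and 1 lowered. Members of this family have close paralogs, and reads shared among them could not be resolved here. The calls for Mgst2 and Hpgds were lost when single libraries were left out, with adjusted p up to 0.0894 and 0.0871.

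**Figure D1:**
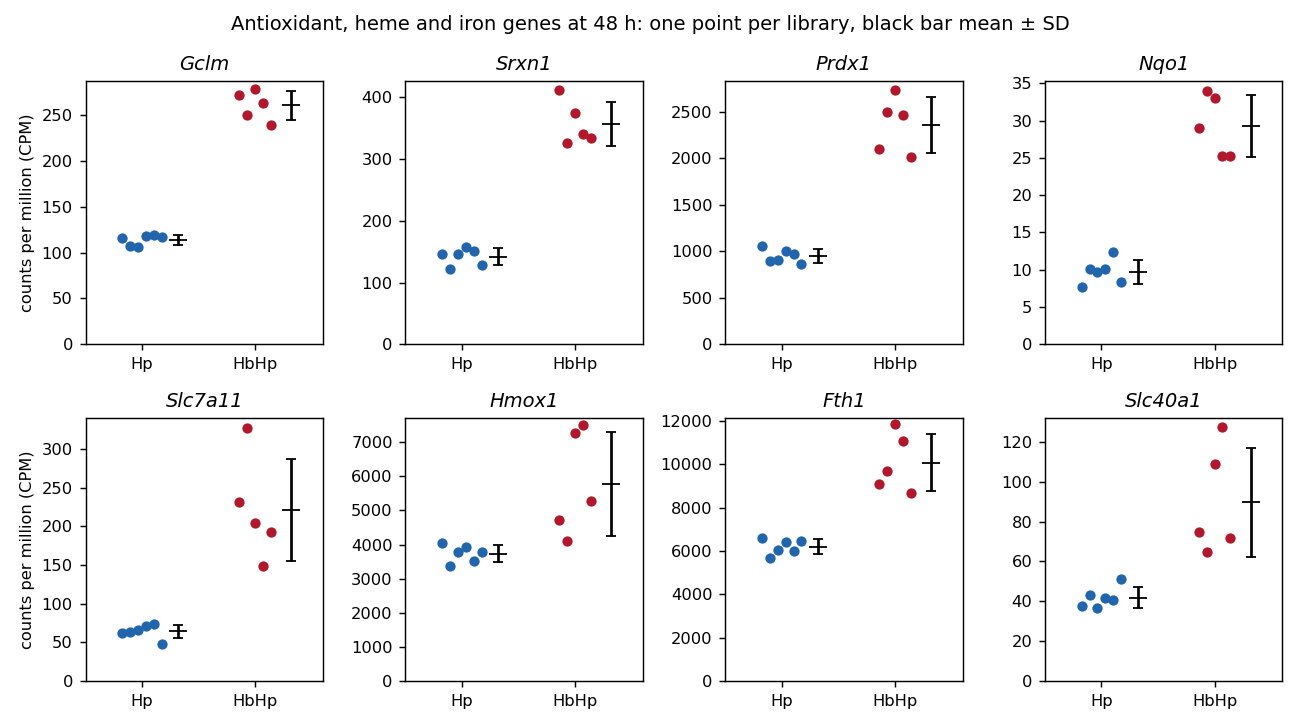
CPM (y axis, linear from 0) of 8 antioxidant, heme and iron genes in the 6 Hp libraries (blue) and 5 HbHp libraries (red) at 48 h, one point per library, with the black bar at the mean ± SD. In each of the 8 genes all HbHp points lie above all Hp points, narrowly for Hmox1 (4105 against 4046 CPM).

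All called genes of the glutathione and NADPH lists were raised. Of these, Gclc, Gsr and G6pdx are also on the NRF2 target list, as are Srxn1, Prdx1 and Gsta3 above. The counts of these lists are thus not separate from the NRF2 result. Of 22 glutathione genes tested, 7 were raised and none lowered, among them the catalytic ligase subunit Gclc (0.53), glutathione synthetase Gss (0.39), glutathione reductase Gsr (0.63) and the esterase Esd (0.87). The list median was 0.05, with 14 of 22 estimates above 0. Of 17 genes for NADPH production, 6 were raised and none lowered. These were G6pdx (0.53), Pgd (0.69), Tkt (0.34) and Taldo1 (0.46) of the pentose phosphate pathway, together with Me1 (0.43) and Idh1 (0.21), whose products make NADPH from malate and isocitrate. The median of the NADPH list was 0.07, with 11 of 17 estimates above 0. The call for Me1 was lost without Hp replicate 3 or Hp replicate 6, with an adjusted p of at most 0.053. Among 10 regulators of NRF2 tested, the small MAF partners Maff (0.68, adjusted p = 0.00569) and Mafg (0.27, adjusted p = 0.0134) were raised. Sqstm1, which encodes the autophagy adaptor p62 that binds KEAP1, rose by 0.74 (adjusted p = 2.13e-05).

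**Figure D2:**
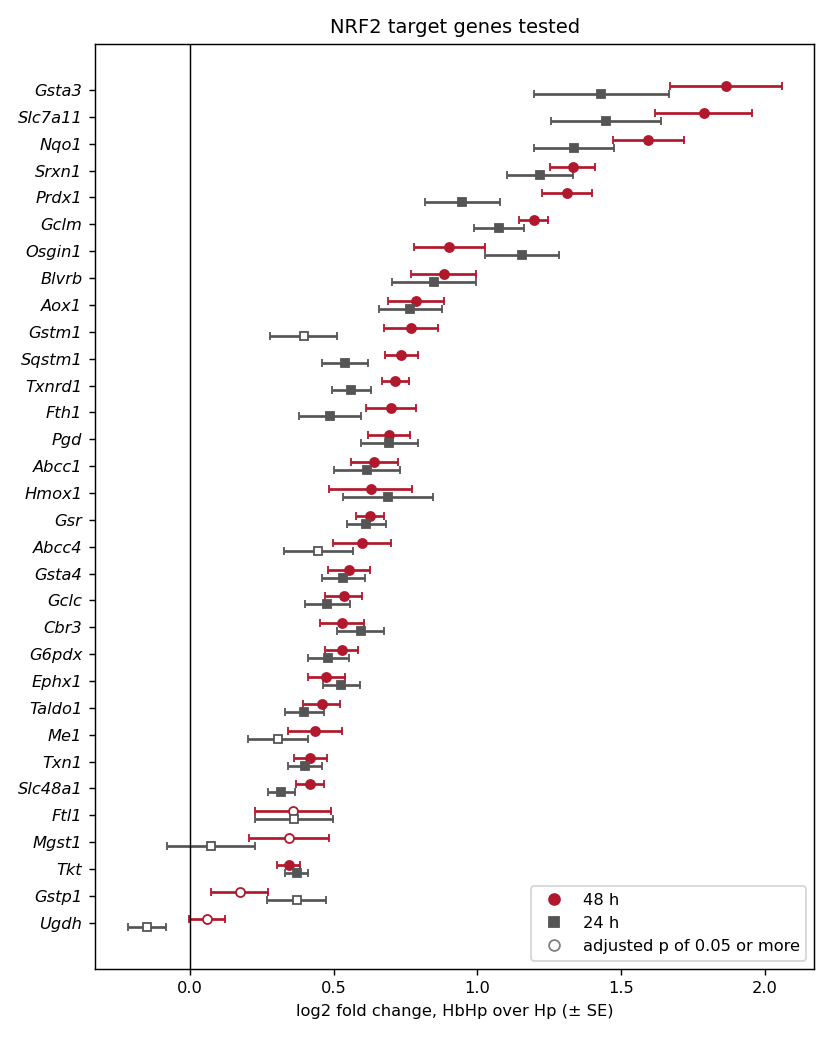
Log2 fold change of HbHp over Hp (x axis, ± SE) for the 32 NRF2 targets tested, at 48 h (red circles, 5 against 6 libraries) and at 24 h (grey squares, 4 against 6 libraries). Filled symbols passed an adjusted p of 0.05, and open symbols did not: 28 members were raised at 48 h and 25 at 24 h.

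Heme breakdown and iron handling were moved at selected steps, and Hmox1 and Slc48a1 are also on the NRF2 target list. Hmox1 (ENSMUSG00000005413) was already abundant with Hp, at 3384 to 4046 CPM with a median of 3772, and measured 4709, 4105, 7278, 7515 and 5271 CPM with HbHp. HbHp replicates 3 and 4 were highest and replicate 2 lay close to the top of the Hp range. The log2 fold change was 0.63 ± 0.14 (adjusted p = 0.0322). This call was lost when any one Hp library, or HbHp replicate 3 or 4, was left out (adjusted p up to 0.0697), and it was stronger without HbHp replicate 2 (0.73, adjusted p = 0.00881). The 2 control libraries measured 2848 and 3104 CPM on the common scale.

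HbHp replicates 3 and 4, with the most Hmox1, also had the most RNA of microglia and macrophages among the HbHp libraries. The summed level of 15 genes shared by these cells was 5937 and 6257 CPM there, against 3260 to 4180 CPM in the other HbHp libraries and 4776 to 6588 CPM with Hp. None of the 15 passed the test between groups. In slice RNA, fewer cells of a type and less RNA per cell cannot be told apart, and the part of cell numbers in the heme and iron results was not tested.

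Blvrb, the biliverdin reductase that follows heme oxygenase, had 69.2, 77.3, 105, 101 and 67.2 CPM with HbHp against 41.2 to 49.5 CPM with Hp (median 46.4). It did not overlap between groups (0.88 ± 0.11, adjusted p = 0.00119). Slc48a1 (ENSMUSG00000081534), the lysosomal heme exporter, had 485, 465, 493, 471 and 426 CPM, against 339.5 to 376 CPM (median 348), with a log2 fold change of 0.42 ± 0.05 (adjusted p = 0.00059). With the heme-binding protein Pgrmc1 (0.24, adjusted p = 0.0101), 4 of 11 genes for heme breakdown and transport were raised and none lowered. Of 11 genes for heme synthesis, the porphyrin transporter Abcb6 (0.48, adjusted p = 0.000696) and the rate-limiting enzyme Alas1 (0.41, adjusted p = 0.0326) were raised, and the call for Alas1 was lost without HbHp replicate 2, among others (adjusted p up to 0.0746).

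Of 24 genes for iron uptake, storage and export tested, 3 were raised and 1 lowered. Slc40a1 (ENSMUSG00000025993), the only known cellular iron exporter, measured 74.8, 64.8, 109, 128 and 71.9 CPM with HbHp, against 36.9 to 51.2 CPM with Hp (median 41.1). Fth1 (ENSMUSG00000024661), the ferritin heavy chain, measured 9112, 9702, 11846, 11076 and 8691 CPM, against 5682 to 6610.1 CPM (median 6234). Both genes separated the groups completely, by 1.10 ± 0.16 on the log2 scale for Slc40a1 (adjusted p = 0.00307) and 0.70 ± 0.09 for Fth1 (adjusted p = 0.000868). The mitochondrial iron importer Slc25a37 rose by 0.43 (adjusted p = 0.0316) and the endosomal ferrireductase Steap3 fell by 0.28 (adjusted p = 0.0278). Both of these calls depended on single libraries, with adjusted p up to 0.0695 and 0.0675.

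The receptors were not raised. Cd163, the receptor of the complex, was low throughout, at 3.31, 2.06, 4.24, 2.77 and 2.16 CPM with HbHp and 3.63 to 5.63 CPM with Hp (median 4.61). The groups overlapped and the difference of -0.69 ± 0.20 on the log2 scale missed the threshold (adjusted p = 0.0717). Lrp1, the receptor of heme-hemopexin, stood at 1517 ± 244 CPM (SD, n = 5) and 1562 ± 90.4 CPM (n = 6), with adjusted p = 0.86. Stab1, a scavenger receptor of macrophages and sinusoidal endothelium, was at 279.6, 189.8, 431, 455 and 393 CPM with HbHp against 547 to 699 CPM with Hp (median 589). It fell by 0.78 on the log2 scale (adjusted p = 0.036), a call that was lost without any one Hp library or without HbHp replicate 1 or 5 (adjusted p up to 0.0754). It was the only one of 9 hemoglobin and heme scavenger genes tested that passed, and none was raised.

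Regulators of ferroptosis, the iron-dependent death by lipid peroxidation, included 3 raised and 1 lowered of 16 tested, with Slc7a11 among the raised. Ptgs2, an enzyme of prostaglandin synthesis that rises in this death, had 14.6, 20.3, 14, 7.67 and 10.1 CPM with HbHp and 4.06 to 6.14 CPM with Hp (median 5.37), without overlap (1.35 ± 0.21, adjusted p = 0.00439). The lipid ligase Acsl4 rose by 0.35 and the polyamine enzyme Sat1 fell by 0.28, both calls being lost without some single libraries (adjusted p up to 0.0671 and 0.0777).

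**Figure D3:**
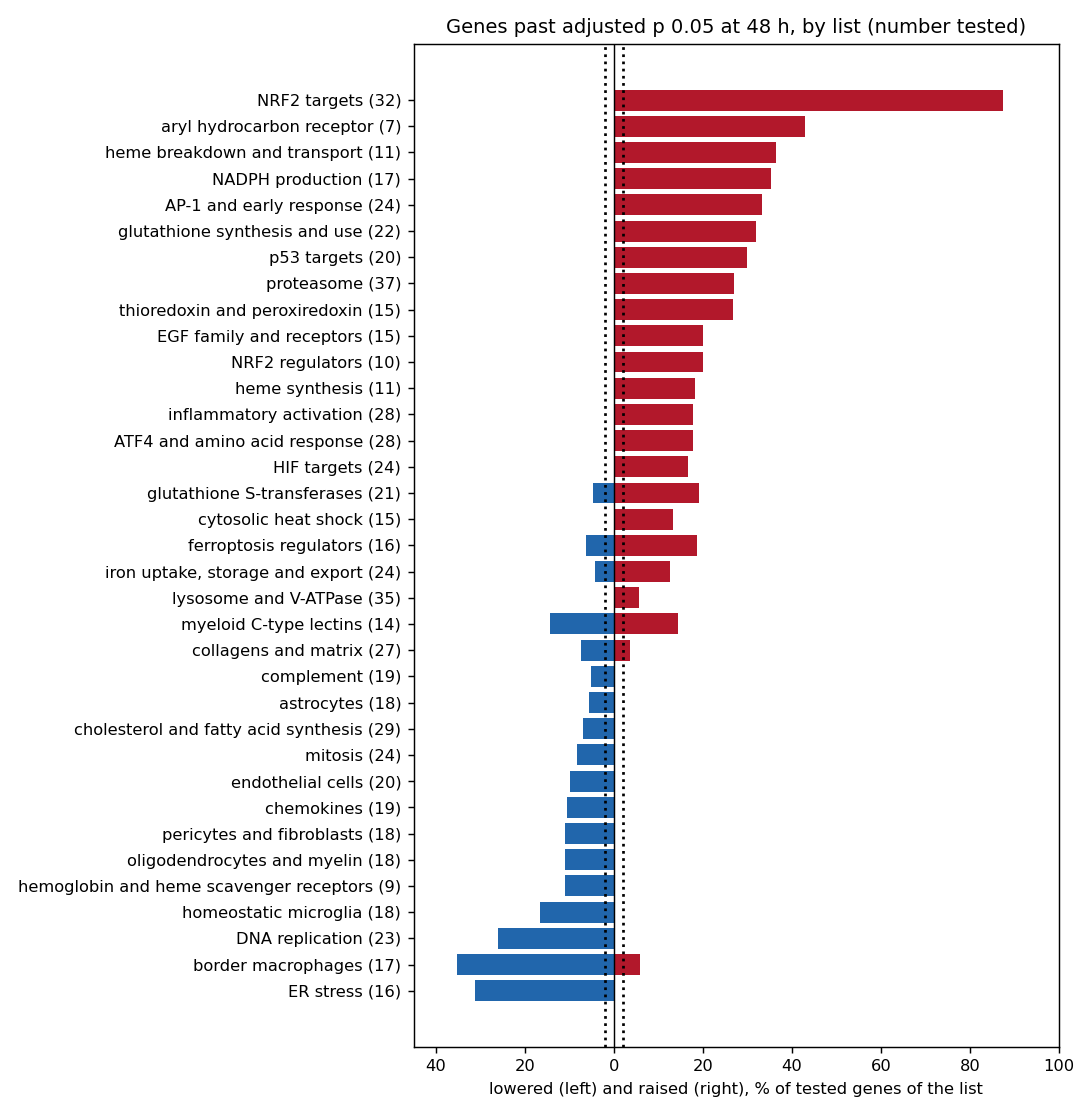
Share of the tested genes of each list that passed an adjusted p of 0.05 at 48 h (x axis, %), raised to the right in red and lowered to the left in blue, for lists with at least 7 genes tested and at least 1 call. Dotted lines mark the shares over all 15141 genes, 2.13% raised and 1.95% lowered, and the NRF2 targets reach furthest to the right, with 28 of 32.

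The other stress lists differed in direction. Proteasome subunits, which degrade damaged proteins, were raised in 10 of 37 cases and lowered in none, by small amounts, the clearest being Psmd11 (0.39 ± 0.04, adjusted p = 0.000313), Psmc6 (0.24), Psma5 (0.26), Psmd14 (0.22), Psmd4 (0.22) and Psma6 (0.17). In 35 of the 37 the estimate was above 0. By contrast, 5 of 16 genes of endoplasmic reticulum stress were lowered and none was raised. The chaperone Hspa5 measured 554, 580.5, 582, 588 and 596 CPM with HbHp and 697 to 725 CPM with Hp (median 710.5) with no overlap (-0.29 ± 0.04, adjusted p = 0.00145). Pdia6, Calr, Sdf2l1 and Hsp90b1 fell by 0.17 to 0.40, and each of these 4 calls was lost without some single libraries (adjusted p up to 0.107). Without HbHp replicate 2, 2 genes of the list were lowered.

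The amino acid response driven by ATF4 had 5 of 28 genes raised and none lowered, among them Slc7a11, Slc3a2, the factor Cebpb (0.69, adjusted p = 0.00674), Trib3 (0.48) and Atf5 (0.22). Slc7a11 and Slc3a2 were already described above with cystine import, so this list is not separate from those results. Trib3 and Atf5 did not stay past the threshold without some single libraries (adjusted p up to 0.084 and 0.0835). Of 20 p53 targets, 6 were raised and none lowered, and 18 had an estimate above 0. These were Gadd45b (0.70), the death receptor Eda2r (0.72), Aen (0.33), Zmat3 (0.24), the p53 ligase Mdm2 (0.25) and Bax (0.22). The call for Bax was lost without some single libraries (adjusted p up to 0.0693). Of 15 cytosolic heat shock genes, Hsph1 (0.24) and Hspe1 (0.19) were raised, each losing its call without some single libraries (adjusted p up to 0.0712 and 0.0871), and 4 of the 15 were raised without HbHp replicate 2.

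Among HIF targets, 4 of 24 were raised and none lowered. Slc2a1, the glucose transporter GLUT1, rose by 0.47 ± 0.05 (adjusted p = 0.000215), while Eno1, Aldoa and Kdm3a rose by 0.22 to 0.26 with adjusted p up to 0.0752 on leaving out a library. Of 7 genes of the aryl hydrocarbon receptor, 3 were raised. Tiparp, its negative regulator, rose by 0.46 ± 0.06 (adjusted p = 0.000901). Cyp1a1, the classic target, was found at 1.63, 0.455, 1.66, 1.61 and 1.15 CPM with HbHp and at 0 to 0.420 CPM with Hp (median 0.222), under 1 CPM on average over the 11 libraries (2.44 ± 0.52, adjusted p = 0.023, up to 0.0531 on leaving out a library). Cyp1b1 had 382, 807, 280.3, 297 and 448 CPM against 189 to 262 CPM (median 225). Its log2 fold change of 0.98 (adjusted p = 0.0343) became 0.65 (adjusted p = 0.0172) without HbHp replicate 2, which was the highest, and the call was lost without HbHp replicate 5 or any one Hp library (adjusted p up to 0.0754).

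Early response genes were raised in 8 of 24 cases and lowered in none. The zinc finger factors Egr1 (0.49), Egr2 (0.97) and Egr3 (0.99), the neuronal gene Arc (0.71) and the AP-1 member Fosl1 (1.69 ± 0.20, adjusted p = 0.000674) kept their calls when any single library was left out. The phosphatase gene Dusp1 (0.50, adjusted p = 0.022) did not (adjusted p up to 0.0535). Without HbHp replicate 2, 8 genes of the list were again raised.

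Inflammatory genes rose in part. Of 28 tested, 5 were raised and none lowered, and the list median was 0.43, which became 0.15 without HbHp replicate 2, with 5 raised and 2 lowered. Il19 (ENSMUSG00000016524), a cytokine of the interleukin-10 family, had 2.56, 4.58, 4.21, 2.50 and 2.84 CPM with HbHp and 0.323 to 1.12 CPM with Hp (median 0.574). The groups did not overlap (2.47 ± 0.31, adjusted p = 0.000868), and the 2 control libraries were at 0.0763 and 0.205 CPM on the common scale. Il11, a cytokine of the interleukin-6 family, varied more, at 10.9, 5.95, 39.1, 22.7 and 11.6 CPM against 3.05 to 6.46 CPM (median 4.26). Its lowest HbHp library lay inside the Hp range, and the log2 fold change was 2.04 ± 0.41 (adjusted p = 0.019). Mmp12, the macrophage elastase, rose by 0.51 (adjusted p = 0.0276, up to 0.0601 on leaving out a library). Gpr84, a receptor of activated microglia, did not pass (1.01, adjusted p = 0.234), and its estimate was 0.14 without HbHp replicate 2, where it stood at 23.2 CPM against 3.63 to 5.25 CPM in the other HbHp libraries. The TNF receptor Tnfrsf1a did not pass either (0.17, adjusted p = 0.0802).

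Of 15 genes tested of the EGF family and its receptors, 3 were raised and none was lowered, with a list median of 0.16. Areg (amphiregulin) had 2.78, 2.10, 4.97, 3.18 and 3.31 CPM with HbHp and 0.584 to 1.05 CPM with Hp (median 0.672). Ereg (epiregulin) had 7.82, 13.4, 16.2, 11.3 and 8.52 CPM and 1.64 to 4.64 CPM (median 3.11). Both separated the groups, by 2.09 ± 0.25 on the log2 scale for Areg (adjusted p = 0.000696) and 1.86 ± 0.25 for Ereg (adjusted p = 0.00128). The third was Btc (betacellulin, 0.79, adjusted p = 0.0131).

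The myeloid C-type lectins, receptors with which macrophages sense microbes and dead cells, went both ways, with 2 of 14 raised and 2 lowered. Clec4d (ENSMUSG00000030144) measured 131, 184, 206, 172 and 134 CPM with HbHp against 48.96 to 75.3 CPM with Hp (median 59.2). Its neighbour Clec4n, which encodes dectin-2, measured 46.3, 85.4, 48.3, 38.5 and 36.2 CPM against 11.4 to 17.98 CPM (median 15.6). Both rose without overlap, by 1.45 ± 0.14 (adjusted p = 0.000153) and 1.75 ± 0.20 (adjusted p = 0.000651). Clec12a, an inhibitory receptor, fell from 13.4 ± 2.15 CPM (SD, n = 6) to 5.75 ± 1.05 CPM (n = 5), and the mannose receptor Mrc1 fell by 0.46 (adjusted p = 0.0177, 0.0501 without HbHp replicate 5).

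The scavenger receptor Marco was uneven among the HbHp libraries. It measured 38.3, 405, 52.7, 57.5 and 44.1 CPM with HbHp and 19.2 to 36.2 CPM with Hp (median 20.1). The log2 fold change was 2.37 ± 0.59 (adjusted p = 0.0435), and 1.07 (adjusted p = 0.00685) without HbHp replicate 2. The call was lost without HbHp replicate 4 or without any one Hp library (adjusted p up to 0.0895). Ppbp, a platelet and myeloid chemokine, had the largest fold change of all named genes (2.70 ± 0.63, adjusted p = 0.0332), from 1.46, 7.59, 0.461, 2.54 and 0.935 CPM against 0.237 to 0.599 CPM (median 0.405). The groups overlapped, and without HbHp replicate 2 the estimate was 1.75 (adjusted p = 0.051). The remaining genes among the 15 raised most were Itprid1 (1.95) and the homeobox factor Nkx3-2 (1.45), both below 4 CPM on average.

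**Figure D4:**
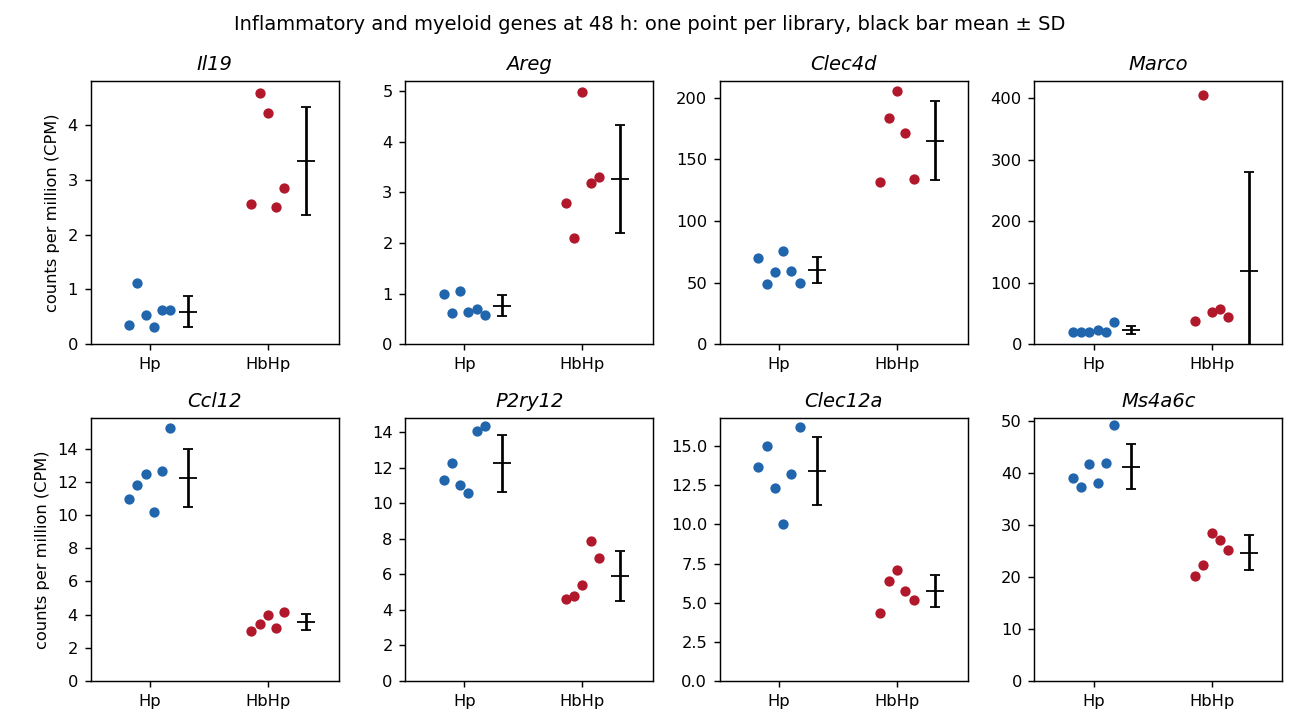
CPM (y axis, linear from 0) of 8 inflammatory and myeloid genes in the 6 Hp libraries (blue) and 5 HbHp libraries (red) at 48 h, one point per library, black bar mean ± SD (the lower SD bar of Marco is clipped at 0). The upper row is higher and the lower row lower with HbHp in every library, and a single HbHp library at 405 CPM sets the mean of Marco.

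Genes of resting microglia and of border macrophages lay lower. Ccl12 (ENSMUSG00000035352), a monocyte chemoattractant, fell most among the named genes, from 10.2 to 15.3 CPM with Hp (median 12.1) to 3.003, 3.43, 3.99, 3.18 and 4.17 CPM with HbHp (-1.78 ± 0.13, adjusted p = 1.47e-05). No library bridged the gap, and the 2 control libraries stood at 12.98 and 15.3 CPM on the common scale. P2ry12 (ENSMUSG00000036353), the ADP receptor that marks resting microglia, had 4.64, 4.76, 5.41, 7.89 and 6.90 CPM with HbHp and 10.6 to 14.3 CPM with Hp (median 11.8), again without overlap (-1.05 ± 0.15, adjusted p = 0.00242). With its relative P2ry13 (-0.85) and Olfml3 (-0.58), 3 of 18 genes of homeostatic microglia were lowered and none raised, and 17 of the 18 had an estimate below 0, with a list median of -0.37. The calls for P2ry13 and Olfml3 were lost without some single libraries (adjusted p up to 0.0722 and 0.0755), and without HbHp replicate 2 the list median was -0.23. The defining markers Tmem119, Cx3cr1 and Csf1r overlapped between groups.

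Of 17 border macrophage genes tested, 6 were lowered and 1, the chemokine Pf4, was raised (0.52, not past the threshold without HbHp replicate 2), with a list median of -0.48. Ms4a6c measured 20.1, 22.3, 28.4, 27.1 and 25.2 CPM with HbHp and 37.2 to 49.1 CPM with Hp (median 40.3). It fell by 0.74 ± 0.10 on the log2 scale (adjusted p = 0.00127), and Ms4a6b by 0.83 ± 0.10 (adjusted p = 0.000739). Clec12a, Mrc1, Stab1 and the factor Maf (-0.43) made up the rest, and Maf lost its call without some single libraries (adjusted p up to 0.0946). These macrophage results stood beside summed levels that overlapped between groups, 1438 to 2522 CPM with HbHp and 1994 to 2247 CPM with Hp over the 18 genes of the list. Slamf9 (-1.15) and Treml2 (-1.28), both expressed on myeloid cells, and Fgd2 (-1.05) were among the 15 genes lowered most, and Treml2 and Fgd2 lost their calls without some single libraries (adjusted p up to 0.104 and 0.07). Of 19 genes tested on the chemokine list, which does not hold Ppbp or Pf4, 2 were lowered and none raised (median -0.12). Without HbHp replicate 2, 3 were lowered and the median was -0.39. The summed level of the list was 847 CPM in HbHp replicate 2, 391 to 461 CPM in the other HbHp libraries and 507 to 582 CPM with Hp. Ccl4 fell by 0.55 (adjusted p = 0.0469), and by 0.72 (adjusted p = 0.00113) without HbHp replicate 2, its highest HbHp library. Without each other HbHp library or any one Hp library the call was lost (adjusted p up to 0.0938). C4b was the only one of 19 genes tested on the complement list that passed and fell by 0.43 (adjusted p = 0.0115), and C6, which is not on that list, is given below. No interferon-stimulated gene of 29 tested and no gene of 24 linked to disease-associated microglia passed. Of the 29 interferon-stimulated genes, however, 3 had an estimate above 0, with a list median of -0.33, or -0.58 without HbHp replicate 2. Their summed levels overlapped between groups (331 to 546 CPM with HbHp, 416 to 734 CPM with Hp). Of the 24 disease-associated genes, 7 had an estimate above 0 (median -0.06).

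The rest of the 15 genes lowered most were on none of the gene lists. Plin4, a lipid droplet coat protein, fell from 29.96 to 52.6 CPM with Hp (median 42.2) to 12.2, 10.3, 19.5, 14.3 and 18.6 CPM with HbHp (-1.46 ± 0.18, adjusted p = 0.000868). The matrix proteoglycan Fmod fell by 1.41 ± 0.20 (adjusted p = 0.00231) and the transcription factor Sp7 by 1.17 ± 0.11 (adjusted p = 0.000153). H2-T24 (-1.35), Capn3 (-1.34), Il12rb2 (-1.14) and the complement component C6 (-1.02) completed the group with calls that were lost without some single libraries (adjusted p up to 0.111), whereas A930017K11Rik (-1.28) and Rnf225 (-1.01) kept theirs without any single library.

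Genes of dividing cells were lower. Of 23 DNA replication genes, 6 were lowered and none raised, and all 23 estimates were below 0 (median -0.23). Thymidine kinase Tk1 went from 23.8 ± 3.07 CPM (SD, n = 6) with Hp to 15.9 ± 1.61 CPM (n = 5) with HbHp (-0.58, adjusted p = 0.00789). The ligase Lig1 (-0.35) and the helicase subunits Mcm5 (-0.25), Mcm3 (-0.27), Mcm7 (-0.27) and Mcm4 (-0.25) followed, the last 3 losing their calls without some single libraries (adjusted p up to 0.0737). Of 24 genes of mitosis, Birc5 (-0.43, adjusted p = 0.00972) and Mki67 (-0.31, adjusted p = 0.0378) were lowered, and all 24 estimates were below 0. Without HbHp replicate 2, 4 were lowered. The call for Mki67 was lost without some single libraries (adjusted p up to 0.0842).

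Lists of the other cell types held few or no calls. No gene of 25 neuronal genes, 21 neuropeptides, 10 genes of oligodendrocyte precursors, 16 of choroid plexus and ependyma or 32 glutamate and GABA receptors passed. The same held for 13 genes of mitochondrial DNA, 11 of cholesterol efflux, 7 metallothionein and zinc genes, 2 neutrophil genes and the marker lists of hypothalamus, thalamus, striatum and cortex. Of 35 lysosomal genes 2 were raised, Atp6v1h and Tfe3. The myelin gene Mal fell from 825 ± 67.7 to 552 ± 76.4 CPM (-0.58 ± 0.09, adjusted p = 0.00356), and with Aspa (-0.50, adjusted p up to 0.0818) 2 of 18 oligodendrocyte genes were lowered, while 2 of the 18 estimates were above 0 (median -0.31). The estimates also lay mostly below 0 for choroid plexus and ependyma (1 of 16 above 0, median -0.29), pericytes and fibroblasts (3 of 18, median -0.23), endothelium (4 of 20, median -0.19) and the 8 hypothalamic markers tested (2 above 0, median -0.93). For astrocytes 6 of 18 estimates lay above 0 (median -0.16), whereas for neurons 19 of 25 did (median 0.08). The summed level of the 16 hypothalamic markers was 87.95 CPM in Hp replicate 3 and 44.54 CPM in Hp replicate 4. It was 27.37 to 29.08 CPM in the other Hp libraries and 21.64 to 30.92 CPM with HbHp. How far the hypothalamic median rested on single Hp libraries was not tested. At 24 h the medians were 1.74 for hypothalamus, 0.51 for choroid plexus and ependyma, 0.18 for pericytes and fibroblasts and -0.16 for endothelium. Single or paired calls were found for astrocytes (Aldoc, -0.48), endothelium (Kdr, -0.49, and Vwf, -0.41) and pericytes or fibroblasts (Tagln, -0.46, and Ptgds, -0.58), of which only Tagln kept its call in every leave-one-out fit (the others reached adjusted p of 0.05 to 0.103). Of 27 matrix genes, Tnc rose by 0.60 while Postn and Thbs1 fell by 0.65 and 0.75, and of 29 genes of lipid synthesis Fasn (-0.31, adjusted p = 0.00431) and Elovl6 (-0.28) were lowered. Apart from Fasn, these calls were lost without some single libraries (adjusted p up to 0.0955).

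The same contrast was available after 24 h in other libraries of the round, 4 with HbHp and 6 with Hp. Fitted together with the 48 h libraries, 118 genes were raised and 28 lowered at 24 h, 0.932% of 15664 tested (0.753% raised and 0.179% lowered). Of the 618 genes called at 48 h, 590 (95.5%) had the same sign at 24 h, against 65.04% of all genes tested at both times, and 102 were also past the threshold at 24 h. The median ratio of the 24 h to the 48 h log2 fold change among the 618 was 0.57. These genes were chosen by their 48 h values, which by itself lowers this ratio, so it does not measure a difference between the times. The NRF2 targets were raised in 25 of 32 cases at 24 h (median 0.54). Gclm stood at 243 ± 38.4 CPM (SD, n = 4) with HbHp and 115 ± 13.2 CPM (n = 6) with Hp at 24 h, and Nqo1 at 30 ± 6.47 and 11.9 ± 1.54 CPM. Il19 was at 3.94 ± 2.13 CPM against 0.358 ± 0.222 CPM.

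Among lowered genes, Ccl12 measured 4.71 ± 0.571 CPM (n = 4) with HbHp and 9.10 ± 2.53 CPM (n = 6) with Hp at 24 h (-0.95, adjusted p = 0.00744), while P2ry12 (-0.49, adjusted p = 0.212) and Sp7 (-0.26, adjusted p = 0.504) did not pass. In the test of the difference between the times itself, however, no gene of 15664 passed an adjusted p of 0.05 (edgeR, smallest adjusted p 0.991), 704 had an unadjusted p under 0.05, and DESeq2 called 1. The standard error of that difference had a median of 0.14, against 0.089 for the 48 h contrast.

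**Figure D5:**
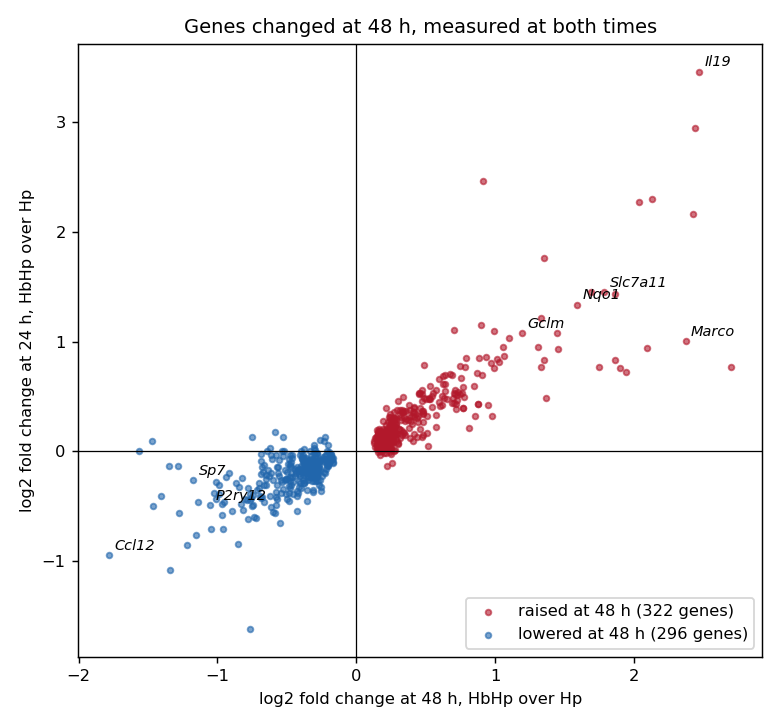
Log2 fold change of HbHp over Hp at 48 h (x axis) and at 24 h (y axis) for the 322 genes raised (red) and 296 lowered (blue) at 48 h, one point per gene. At 24 h, 313 of the raised genes lie above 0 and 277 of the lowered genes below 0.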

How the data were processed

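RNA was extracted from whole slices with a Lexogen SPLIT kit and sequenced as Illumina TruSeq mRNA libraries. The authors deposited raw read counts per gene, made with featureCounts on GRCm39 according to the submitters' processing notes. Aligner, versions and strand setting are not given in the sources used here. Of 134 named genes, 43 share exon bases with another gene in GENCODE M21, 9 of them on the same strand, and their reads may be mixed.

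Members and gene lists were chosen with earlier results of these data known. Symbols were matched for 25424 of 25528 identifiers, and the identifier with more counts was used where a symbol had several. Counts were tested with edgeR 4.0.16 (R 4.3.3, limma 3.58.1) by its quasi-likelihood test, TMM scaling and filterByExpr (minimum count 10, total 15), with Benjamini-Hochberg adjustment and a threshold of 0.05. The 48 h fit used its 11 libraries only. The time difference used 21 libraries. Values in CPM are TMM-scaled, and each SE was derived from the log2 fold change and its F statistic. No pair of libraries of a group differed by less than sampling noise. In simulated counts for the 48 h contrast (15038 genes), 64.2%, 73.1% and 97% of genes changed by 0.5, 1 and 2 on the log2 scale were called. For the time difference (15575 genes) the shares were 40.3%, 71.6% and 90.9%. Unchanged genes were called 6 and 8 times. Each gene was drawn independently and no simulated library stood apart as HbHp replicate 2 did, so these shares do not cover such libraries.

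Genes were named by rule: the 15 raised and 15 lowered most among called genes averaging 1 CPM or more, 10 genes the study discussed, and up to 6 past the threshold per list (where none passed, the most abundant members could be named). Of 168 genes meeting it, 134 were followed through the alternatives. The 5 leading genes of the time difference would have been named had any passed. Names outside the rule (Acod1, Fpr1, Ttr, Pf4, globin genes, uncalled list members) were added after their values were seen. Haptoglobin libraries of the first round and 31 libraries whose labels disagreed were not used. Motifs were searched on both strands of 250 bases upstream.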

Additional observations from a re-analysis of the deposited data

Results flagged for a closer look

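Each named gene was examined in both groups for a library whose distance to the nearest other library took up most of the range of its group (Dixon's criterion on log2 CPM). This met 12 of 268 combinations of gene and group, and chance alone gives about 1 in 20. HbHp replicate 2 was far above the other HbHp libraries for Marco (405 CPM) and Gpr84 (23.2 CPM), and it was the library that stood apart on the first principal component. HbHp replicate 1 was high for Arc (115 CPM). Among the Hp libraries, replicate 6 was high for Marco (36.2 CPM) and Pdia6 (250.3 CPM), replicate 1 was high for Slc48a1 (376 CPM) and low for C4b (515 CPM), and replicate 2 was low for Txnrd1 (249.5 CPM). Replicate 5 was low for Mgst2 (0.765 CPM) and high for Tkt (258 CPM), and replicate 4 was high for Slc2a1 (98.0 CPM) and low for Birc5 (15.7 CPM). The Slc48a1, Pdia6, Slc2a1, C4b, Birc5 and Txnrd1 extremes in Hp did not reach the HbHp range.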

How the results depend on the processing

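At 48 h the 618 changed genes (322 raised, 296 lowered, 157 of at least 1.5-fold, 129 in the gene lists) stayed within 1.5 times under RLE scaling (610), no count filter (514), a stricter one (648), a term for the M or F letter of the library code (481), GC and length correction (578) and a fit with the 24 h libraries (700). DESeq2 called 1267 (597 raised, 670 lowered, 238 of at least 1.5-fold, 207 in lists), 617 of them shared. A fit with all 48 h libraries of the round that carried the same batch label gave 319 (147 raised, 172 lowered, 82 in lists). The alternative chosen after seeing the data, without both libraries low in choroid plexus transcripts, gave 358 (199 raised, 159 lowered). Leaving out each library in turn gave 337 to 769 changed, 183 to 336 raised, 153 to 433 lowered, 83 to 134 in lists and 83 to 109 of the 130 named genes called. The cause of these differences was not tested, beyond the smaller number of libraries when some were left out.

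Libraries with the same code were not shown to be paired: their deviations correlated at 0.219, -0.168, 0.132 and 0.153. With that code as a replicate block, 79 genes were called (45 raised, 34 lowered, 50 of at least 1.5-fold, 38 in lists, 37 named). Code M4 occurred only with HbHp, and M2 and F3 only with Hp, so these libraries added nothing to the blocked contrast. The block terms also left fewer degrees of freedom, so the lower count cannot be read as an effect of pairing alone.

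The time difference gave 0 calls in every edgeR alternative and 1, Cga, in DESeq2. The DESeq2 estimate for Cga was -30 on the log2 scale, which cannot be read as a size of change. Lrp1, which did not pass, turned from -0.04 to 0.0129 without both libraries and ranged from -0.11 to 0.019 over the leave-one-out fits (0.019 without HbHp replicate 2, 0.005 without HbHp replicate 1). Of the 130 named genes called, 78 passed in all 11 leave-one-out fits. With 5 and 6 libraries and a median SE of 0.089, changes near the size of that error were not detectable, and 52 of the calls were lost in at least 1 of those fits.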
